A study of Mus musculus with 2 samples.

Results

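The genes described here encode proteins that assemble plasma lipoproteins in the liver, remodel them in the circulation, take them up again or supply them with cholesterol. They are Pltp, Lcat, Lipc, Mttp, Scarb1, Abca1, Abcg1, Lrp1 and Apoh, a list of 9 genes picked for their function. Earlier results of these data were known when the list was chosen. All probe sets whose platform gene symbol is 1 of these names were taken, which gave 17 probe sets for 8 of the 18193 genes named on the array (45037 probe sets without the controls). Lipc, the hepatic lipase gene, was not analysed here. A probe set is a group of short oligonucleotides on the array that reads out 1 transcript, and several probe sets can read the same gene.

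The study compared livers of male 129SvEJ mice that were 8 weeks old. One group was wild type and the other was pparalpha -/-, called Ppara-null below, with the gene of the nuclear receptor PPARα disrupted. Both groups ate chow with 0.2% fenofibrate, a drug that activates PPARα, for 7 days. RNA of 3 mice was pooled per genotype, and each pool was measured on 1 Affymetrix expression array, so each group is 1 sample. Because both groups received the drug, the contrast joins what differs between the genotypes without it and what differs in their response to it. With 1 array per group there is no replicate check of any difference, so no test was made, and a gene was called where the signals differed by 2-fold or more. It is not stated in the labels how Ppara was disrupted or whether the loss was limited to some cells.

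Lipoproteins carry triglyceride and cholesterol through the blood. The liver loads lipid onto apolipoprotein B to make very low density lipoprotein (VLDL), and it supplies lipid to apolipoprotein A-I to form high density lipoprotein (HDL). Enzymes and transfer proteins in plasma then reshape both kinds of particle, and liver receptors clear the remnants and take cholesterol from HDL. PPARα is a regulator of lipid genes in hepatocytes, and fibrates such as fenofibrate are used to lower plasma triglyceride.

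Signals are the deposited intensities on a linear scale, which the authors scaled to the same target on each array. An array's median signal served as its floor (287.8 for wild type, 269.4 for null), and lower signals were raised to it before a ratio was taken. A ratio with 1 signal under the floor gives only a bound, which is marked by the words at least. Of the 17 probe sets, 14 were above the floor on both arrays, 1 on the wild-type array only and 2 on neither. Each of the 8 genes was above the floor on both arrays at its brightest probe set, which stands for the gene below. The targeted gene had a lower null signal at all of its probe sets, Ppara giving 7957 in wild type and 3414 in null at 1439675_at, 5833 and 2953 at 1449051_at, and 4312 and 1551 at 1457721_at. The null signals were still 36.0% to 50.6% of wild type and 5.76 to 12.7 times the floor. The hepatocyte markers were bright on both arrays, with albumin (Alb) at 192642 and 212369. The array number limits the precision. As a yardstick for scatter within this pair of arrays, the pooled SD between the log2 ratios that several probe sets gave for the same gene was 0.42 (1.34-fold), from 3917 genes with 10117 probe sets. It leaves out the spread between mice and between pools.

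Pltp, the gene of the phospholipid transfer protein, was the single member at least 2-fold apart, with 1 of 8 genes higher in wild type and 0 lower. Its protein moves phospholipid from the surface of triglyceride-rich particles to HDL and enlarges HDL particles. The shares past 2-fold among all 13041 measured genes were 4.99% towards wild type and 2.80% towards null. By probe set, 2 of the 15 member probe sets above the floor on an array were at least 2-fold higher and 0 lower, against 4.65% and 3.15% of 22323 measured probe sets. Both of these probe sets read Pltp. At a lower threshold of 1.5-fold, Pltp remained the single gene called, where 14.8% of measured genes were higher and 11.0% lower. The other 7 genes had log2 ratios of wild type over null between -0.28 and 0.51, inside the range of -0.78 to 0.88 that held the middle 90% of the 10060 genes measured on both arrays.

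**Figure D1:**
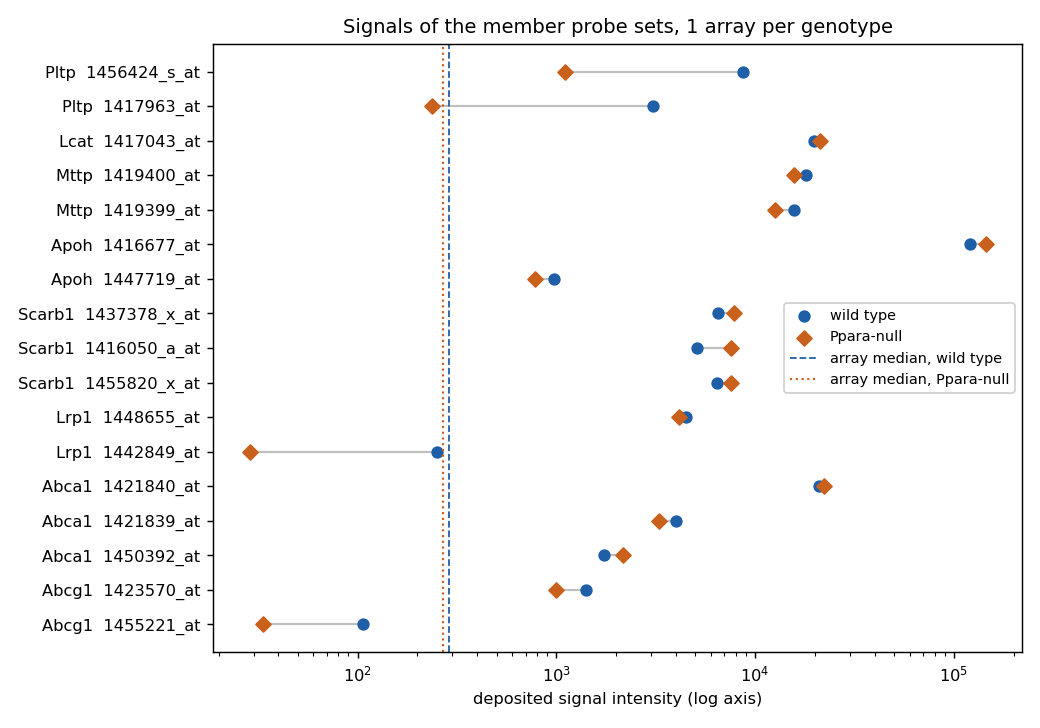
Deposited signal intensity (log axis) of the 17 member probe sets in wild type (circles) and Ppara-null (diamonds), 1 array each; the vertical lines are the medians of the arrays, used as floors. Pltp has the widest gap among probe sets above a floor (8660 against 1101 and 3065 against 237.7), while the Lrp1 and Abcg1 probe sets with wide gaps lie left of both lines.

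The promoters of Pltp and Apoh are shown because Pltp is the gene that stands apart and Apoh is the member whose promoter holds the hexamer that nuclear receptors recognise. Both are the 250 bases before the transcription start in RefSeq on GRCm38.p6. Pltp lies at chr2:164857709-164857958 on the minus strand and Apoh at chr11:108395047-108395296 on the plus strand. Capitals mark the hexamer AGGTCA or the GC box GGGCGG, on either strand.

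Pltp promoter: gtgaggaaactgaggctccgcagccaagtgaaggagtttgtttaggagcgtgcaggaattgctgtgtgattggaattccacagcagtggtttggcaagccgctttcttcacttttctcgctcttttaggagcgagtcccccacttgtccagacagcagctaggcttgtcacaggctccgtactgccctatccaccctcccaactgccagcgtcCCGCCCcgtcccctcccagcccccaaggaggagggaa

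Apoh promoter: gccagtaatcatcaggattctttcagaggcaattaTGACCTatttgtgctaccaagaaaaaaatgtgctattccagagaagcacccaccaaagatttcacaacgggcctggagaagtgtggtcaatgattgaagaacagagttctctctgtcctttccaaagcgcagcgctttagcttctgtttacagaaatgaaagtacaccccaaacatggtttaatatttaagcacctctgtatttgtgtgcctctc

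Nuclear receptors such as PPARα, which binds with its partner RXR, recognise pairs of the hexamer AGGTCA. The direct repeat AGGTCANAGGTCA is the idealised form for PPARα. Promoter windows were at hand for 6 of the 8 genes, and Abcg1 and Scarb1 had none in the table. The hexamer was found in 1 of these 6 windows, that of Apoh, where it starts 215 bases before the transcript, and in 14.0% of all 32851 windows of the same length. The Pltp window held none. The direct repeat was in 0 of the 6 windows and in 0.0335% of all, and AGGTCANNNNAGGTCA, the repeat bound by the sterol sensor LXR, was in 0 and 0.0152%. The GC box GGGCGG was in the windows of Pltp, Abca1 and Lrp1 and in 32.7% of all windows, and in Pltp it starts 37 bases before the transcript. A direct repeat also holds the hexamer, so these counts overlap. A match is a string of letters and not a bound site, and sequence outside these windows was not searched. Only exact letters were counted, so a window without a match may still hold an imperfect site.

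Among the genes that remodel particles in plasma, Pltp and Lcat had different ratios. At its brightest probe set, 1456424_s_at, Pltp had a signal of 8660 in wild type and 1101 in null. Wild type was thus 7.87-fold higher (log2 ratio 2.98), and the null signal was 12.7% of wild type and still 4.09 times the floor. The second Pltp probe set, 1417963_at, gave 3065 in wild type and 237.7 in null. The null signal there lay under the floor, so wild type was at least 11.4-fold higher. The suffix _s_at of the first marks probes shared by several transcripts, and the second does not carry it. With the floor raised to the brightest Bacillus control of the null array (422.4), a probe for a bacterial transcript, the bound was 7.26-fold. Both Pltp probe sets were thus brighter in wild type, and by more than any other member at any probe set above a floor.

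Lcat, lecithin-cholesterol acyltransferase, esterifies cholesterol on HDL and so acts on the same particles as the Pltp protein. Its single probe set, 1417043_at, gave 19766 in wild type against 21117 in null (log2 ratio -0.10). That is within the scatter of probe sets of 1 gene. The Pltp ratio exceeded that of Lcat by 3.07 on the log2 scale, and such a difference of ratios is not altered by any constant rescaling of an array.

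Ranked by ratio among the 10060 genes measured on both arrays, Pltp stood at place 13. The genes nearest in ratio over these 2 arrays were Ech1 (7.98-fold) and Mfsd2a (7.87-fold) just above, and Abhd6 (7.85-fold) and Acot3 (7.60-fold) just below. With 1 array per genotype this likeness is of 1 ratio and carries no pattern across samples.

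**Figure D2:**
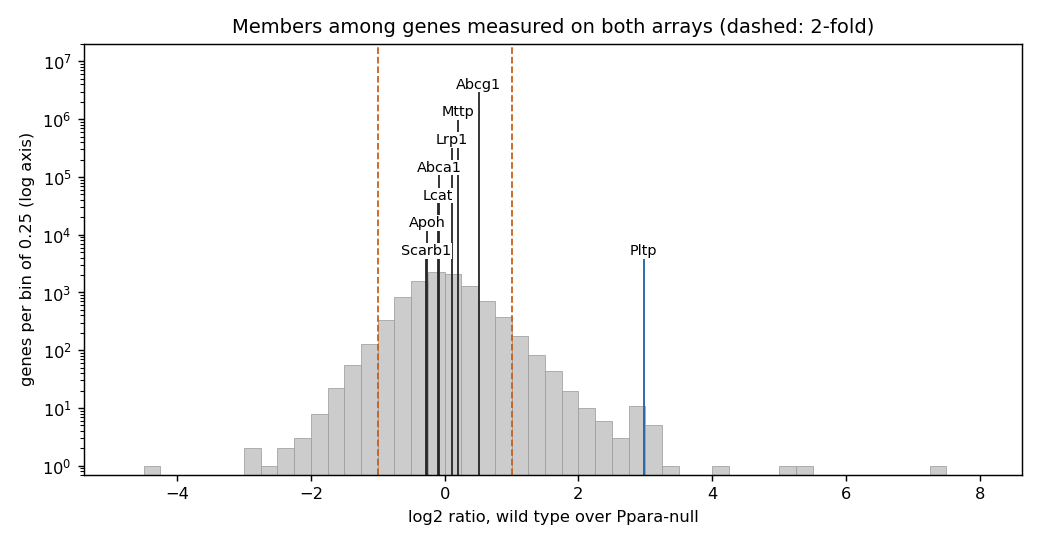
Histogram (log axis) of log2 ratios, wild type over Ppara-null, of the 10060 genes measured on both arrays in bins of 0.25, with a vertical line for each member; line heights differ only to keep the names apart. Pltp lies at 2.98, beyond the dashed 2-fold lines, and the other 7 members lie between -0.28 and 0.51.

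Mttp encodes the large subunit of microsomal triglyceride transfer protein, which lipidates apolipoprotein B in the endoplasmic reticulum. Its brighter probe set, 1419400_at, gave 18040 in wild type and 15711 in null, and 1419399_at gave 15768 and 12619. Both had the higher signal in wild type, with log2 ratios of 0.20 and 0.32, each within the probe set scatter. Of the genes above both floors, 69.2% ranked below the first.

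Apoh encodes β2-glycoprotein I, a secreted plasma protein that binds anionic phospholipids. Its bright probe set, 1416677_at, gave 120417 in wild type against 144406 in null (log2 ratio -0.26). The dim one, 1447719_at, gave 974.9 and 783.9 and pointed the other way, with 0.31. The Apoh probe sets were 0.58 apart on the log2 scale, so no direction can be given for this gene.

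Of the receptors, Scarb1 encodes SR-B1, which takes cholesteryl ester from HDL into hepatocytes without taking up the particle. It was read by 3 probe sets. The brightest, 1437378_x_at, gave 6468 in wild type and 7835 in null. At 1455820_x_at the signals were 6424 and 7585, and at 1416050_a_at they were 5076 and 7598. All 3 were lower in wild type, with log2 ratios of -0.28, -0.24 and -0.58, the last being 1.5-fold lower. When the arrays were scaled to their hybridization controls, these ratios became 0.10, 0.14 and -0.20, so the shared direction was lost. Names ending in _x_at mark probe sets that may also bind other transcripts, and without them Scarb1 stood at -0.58.

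Lrp1, a large endocytic receptor for lipoprotein remnants and protease complexes, gave 4465 in wild type against 4146 in null at 1448655_at, a log2 ratio of 0.11. Its other probe set, 1442849_at, gave 250.6 and 28.7. Both values were under the floors, so no ratio is given although the numbers differ.

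The efflux transporters pass cholesterol out of cells, Abca1 to lipid-poor apolipoprotein A-I and Abcg1 to HDL particles that already carry lipid. Abca1 was read by 3 probe sets that did not share a direction. The brightest, 1421840_at, gave 20948 in wild type and 22221 in null (log2 ratio -0.09). At 1421839_at the signals were 4020 and 3274 (0.30), and at 1450392_at they were 1733 and 2161 (-0.32). The probe sets of Abca1 spanned 0.61 on the log2 scale, the widest range among the members with several probe sets above both floors.

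Abcg1 had the second highest ratio of the members, 1412 in wild type against 991.6 in null at 1423570_at. That is 1.42-fold (log2 ratio 0.51), above the probe set scatter of 0.42 and under the 2-fold threshold, and 86.1% of the genes above both floors ranked below it. Its other probe set, 1455221_at, gave 105.9 and 33.4, under the floors on both arrays.

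Set in order, the ratios ran from Pltp over Abcg1, Mttp, Lrp1, Abca1, Lcat and Apoh down to Scarb1. Pltp was 2.47 above Abcg1 on the log2 scale. Every other step between neighbours was at most 0.31, less than the probe set scatter. From Abcg1 at the top of these 7 to Scarb1 at the bottom the span was 0.79. With 1 array per genotype the order below Pltp has no replicate check. The median log2 ratio over the 8 genes was 0.01, and 0.005 over all measured genes. Of the 13 probe sets of the other 7 genes above the floor on both arrays, 6 had positive and 7 negative ratios, and 11 of the 13 lay within 0.42 of 0.

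The scaling between the arrays decided the sign of several small ratios. The 18 hybridization control probe sets, which read bacterial and phage transcripts added to each hybridisation, had a median log2 ratio of -0.38, between -0.73 and -0.12. Scaling the arrays to these controls moved the ratio of every member up by that amount, so that 8 of 8 were positive instead of 4 of 8. Over all measured genes the calls at 2-fold moved with it, from 651 higher and 365 lower to 1759 and 109. Abca1 then stood at 0.29, Lcat at 0.28, Apoh at 0.12 and Scarb1 at 0.10. Pltp, Abcg1, Mttp and Lrp1 were positive in all 11 settings for which ratios were computed. Pltp was at least 2-fold higher in each of them. The 4 other floors left these ratios unchanged, and the control scaling could only raise them. Abcg1 and Lrp1 had 1 measured probe set each, so the settings that choose among probe sets repeat their deposited values. For the small ratios the count of settings is thus a weak check of the sign.

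**Figure D3:**
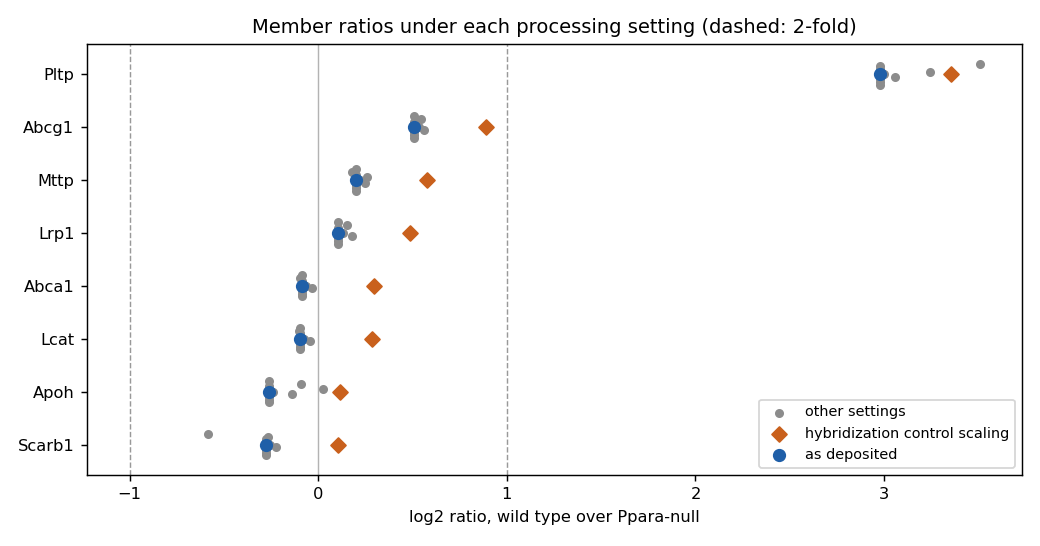
Log2 ratio, wild type over Ppara-null, of each member as deposited (circles), after scaling to the hybridization controls (diamonds) and under 9 other settings (grey points); dashed lines mark 2-fold. Pltp lies between 2.98 and 3.51, and Abca1, Lcat, Apoh and Scarb1 lie below 0 as deposited and above 0 after the control scaling.

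Other genes of lipoprotein metabolism were listed by role. Of 49 measured genes in 5 lists, 3 reached 2-fold towards wild type and 2 towards null, and the median log2 ratio was -0.13. These are 6.12% and 4.08% of the 49, beside 4.99% and 2.80% of all measured genes. Among lipases and their modulators, 2 of 8 were higher and 0 lower. Lpl, lipoprotein lipase, which hydrolyses triglyceride in circulating particles, gave 11278 in wild type and 1027 in null (10.98-fold), and 1637 and 156.9 at another probe set (at least 6.08-fold). Angptl4, a secreted inhibitor of that lipase, gave 12181 and 6080, which is 2.003-fold, so its call rests on the threshold. It was lost after quantile normalization, and also without probe sets ending in _s_at, since its other one lay under both floors. Angptl8, a further modulator of the lipase, gave 553.1 and 873.2 (-0.66). Among 12 receptors and adaptors, Cd36, a scavenger receptor that also imports fatty acids, was 17.8-fold higher (17156 against 966.4). Its other probe sets gave 12961 against 1131 (11.5-fold) and 981.4 against 198.2 (at least 3.64-fold). Sorl1, a sorting receptor related to the LDL receptor family, was 2.40-fold lower (320.8 against 769.1). The wild-type signal of Sorl1 was just above the brightest Bacillus control there (316.5). Vldlr, the VLDL receptor, stood at 1.78-fold (2274 against 1280). The log2 ratios of 4 other Vldlr probe sets above a floor ran from 0.01 to a bound of 0.99.

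The partners of Mttp in assembly and secretion had 0 of 9 genes past 2-fold in either direction, with ratios from -0.36 to 0.27. P4hb, protein disulfide isomerase and the small subunit of the transfer protein, gave 45550 in wild type and 58575 in null (-0.36). Sar1b, a GTPase of the coat that carries large lipoproteins out of the endoplasmic reticulum, gave 45212 and 37393 (0.27). Mttp and P4hb, whose products form 1 complex, thus had ratios of opposite sign as deposited, and both were under 2-fold.

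For sterol efflux, 0 of 8 measured genes were past 2-fold. The sterol exporters of the bile canaliculus, Abcg5 and Abcg8, gave 7924 against 4806 (1.65-fold) and 3683 against 2588 (1.42-fold), so both had ratios on the same side as Abcg1. Abcg4, a close relative of Abcg1, gave 391.6 against 241.2, at least 1.45-fold, but another of its probe sets gave 62.5 against 733.3. The wild-type signal there lay under the floor, so the log2 ratio of -1.35 is also a bound. Under the Bacillus floor of the null array (422.4) the bound of 1.45-fold was gone. Nr1h3, the sterol receptor LXRα, which acts on Abca1 and Abcg1, stood at 0.12.

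The apolipoproteins, which form the protein coat of the particles, had 1 of 12 genes past 2-fold, Apoa4, lower in wild type at 13744 against 94020. That is a log2 ratio of -2.77, and another Apoa4 probe set above a floor stood at -4.08. All 12 apolipoprotein genes had negative ratios as deposited, with a median of -0.24, where 47.8% of genes measured on both arrays had positive ratios. That share covers genes of all signal strengths, and the 7 hepatocyte markers, also bright, were all negative too (median -0.32). After loess, a scaling that follows signal strength, 2 of 12 apolipoprotein genes were positive, with a median of -0.15. After quantile normalization 3 of 12 were positive, and after scaling to the hybridization controls 7 of 12. Apoa1, the acceptor for Abca1 and activator of Lcat, gave 211813 and 237203 (-0.16). Apob, the substrate of Mttp, gave 40692 and 63149 (-0.63), but its other probe set stood at 0.09. Apom stood at -0.58. Pltp, Lcat, Scarb1, Abca1, Abcg1 and Apoa1 are genes of HDL handling that were grouped here and were not one of the lists. Of these, Pltp alone was past 2-fold on these arrays. Apoa4, past 2-fold towards null, is not in this grouping, so that result depends on the choice of genes.

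**Figure D4:**
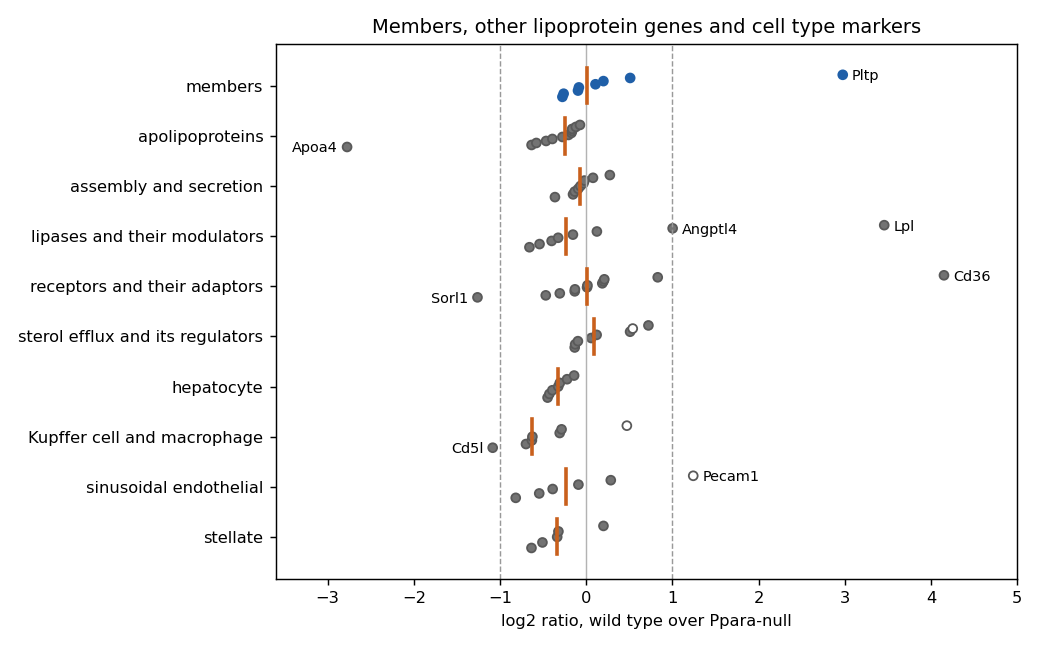
Log2 ratio, wild type over Ppara-null, of the 8 members (blue), of 5 lists of other lipoprotein genes and of 4 lists of cell type markers, with 1 point per measured gene, open where the ratio is a bound, an orange bar at each list's median and dashed lines at 2-fold. Pltp, Lpl and Cd36 lie far right and Apoa4 far left, and Kupffer cell markers have a median of -0.62.

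Liver tissue holds several cell types, and in bulk RNA fewer cells of a type cannot be told apart from less RNA per cell. Pltp, Abca1, Abcg1 and Lrp1 are also expressed in macrophages. Of the Kupffer cell and macrophage markers, 7 of 8 were above the floor on an array and 6 of these had negative ratios, with a median of -0.62 and -0.25 after the control scaling. Cd5l, a protein secreted by macrophages, was 2.12-fold lower in wild type (1910 against 4052), Clec4f gave 1850 and 3003, and Marco was under both floors (115.1 and 57.9). Cd68 was brighter in wild type (373.5 against 204.3, the latter under the floor). Under the Bacillus floor of the null array (422.4) this bound of Cd68 was gone. The summed signal of the 8 markers was 16148 in wild type and 23168 in null, of which Csf1r gave 6877 and 8511. The 7 hepatocyte markers had negative ratios throughout as deposited, with a median of -0.32, and 4 of 7 were positive after the control scaling. Of 6 sinusoidal endothelial markers, 4 had negative and 2 positive ratios, and the list median was -0.24. Eng stood at -0.82, and at -0.28 at another probe set, and Kdr stood at -0.55. Pecam1 went the other way with 636.9 and 228.0, at least 2.36-fold, or at least 1.51-fold with the floor at the brightest Bacillus control. The stellate cell median was -0.34, with 0 of 5 past 2-fold. Of the listed lymphocyte markers Ptprc alone was measured (822.8 against 363.5, 2.26-fold), and other leukocytes express it as well. Cd3e and Cd79a lay under both floors. With the floor at the brightest Bacillus control, the log2 ratio of Ptprc was at least 0.96, and its call at 2-fold was lost. Cholangiocyte and blood markers, 3 and 2 genes measured, had 0 past 2-fold and medians of -0.24 and -0.22. Of these genes, 0 and 1 were above both floors, so the other ratios are bounds. Epcam, a cholangiocyte marker (107.5 against 551.7), was past 2-fold towards null after quantile normalization. The part of these cell types in the members' ratios was not tested.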

How the data were processed

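Liver RNA pools of 3 mice per genotype were measured on 1 array each. The authors computed signals with Affymetrix's statistical algorithm and scaled each array to a target of 1000, per the labels. The deposited values are 1 signal intensity per probe set and array. For the software version and detection calls, nothing is stated in the labels. The labels carry the same scaling text for both arrays, so it was not used.

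The platform annotation of 2016 gave the gene names: 34945 probe sets had 1 symbol, 932 several and 9160 were unnamed here, and the last 2 kinds were kept out. Floors at each array's median, the log2 ratio and the brightest probe set per gene (highest mean log2 signal) were computed in Python 3.11.15 with pandas 2.3.3. A gene counted as measured if it was at or above the floor on an array, which held for 13041 genes. No test was possible with 1 sample per group. The procedure was tested on simulated data.

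Named were all members, the genes of each list at least 2-fold apart, filled up to at most 3 by the size of the ratio, Ppara, and the genes nearest to Pltp in rank. Nr1h3, Apoa1, Alb, Cd68, Csf1r and Marco were named outside this rule, after their values were seen. The members and lists were chosen with earlier results of these data known. Alternatives were 4 scalings, 4 floors, the median over probe sets, leaving out cross-reacting probe sets (_x_at, _s_at), and 1.5-fold or 3-fold as the threshold. Promoters are from RefSeq (GRCm38.p6).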

Additional observations from a re-analysis of the deposited data

How the results depend on the processing

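The count of 1 member at least 2-fold apart, Pltp, was the same under all 12 alternatives. Of these, the 4 floors left every member's ratio unchanged. The Pltp log2 ratio ran from 2.98 to 3.51, the latter without probe sets ending in _x_at or _s_at, where it is a bound. The median over the members, 0.01 as deposited, became 0.39 with hybridization control scaling and lay between 0.01 and 0.07 otherwise. That scaling moved the median of all measured genes from 0.005 to 0.38, which by construction moves all members alike.

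Counts over all measured genes depended on the floor and the scaling. As deposited, 651 were at least 2-fold higher and 365 lower, so that 64.1% of the calls were higher. After the control scaling there were 1759 and 109 (94.2% higher), with the floor at the 25th percentile 2336 and 1650, at the 75th percentile 157 and 98, with no floor 3096 and 2177, and with floors at the brightest Bacillus controls 297 higher (49.5%). At 1.5-fold there were 1925 and 1438, and at 3-fold 132 and 58. Of the other lipoprotein genes, 3 higher as deposited became 5 after the control scaling (Abcg5 and Vldlr added), with the floor at the 25th percentile, with no floor and at 1.5-fold, and 2 after quantile normalization, at 3-fold and without _x_at and _s_at. The 2 lower became 1 after the control scaling, with the floor at the 75th percentile and at 3-fold, and 4 at 1.5-fold.

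No paired analysis was possible because each genotype has 1 array. Signals near the floor cannot be told from background, which leaves the dim probe sets of Lrp1 and Abcg1 without a ratio.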
